A study of Mus musculus with 71 samples.

Results

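The genes described here are 10 chemokines of the intestinal epithelium and its intraepithelial lymphocytes: Ccl3, Ccl4, Ccl5, Xcl1, Ccl25, Ccl20, Ccl28, Cxcl16, Cx3cl1 and Ccl6. They were chosen by name, and they are 10 of the 24475 gene identifiers in each bulk table. All 10 were found in the bulk and in the single-cell tables. The question was which fraction of the gut held the transcripts of each gene, and how their levels differed along the small intestine, between small intestine and colon, and between Btnl2-KO and WT mice.

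The series held 71 libraries of Btnl2-KO mice, homozygous for a null allele with an in-frame LacZ insertion, and of their WT littermates, all on a C57BL/6 background. Bulk RNA-sequencing covered sorted γδ IELs (T cells with a γδ receptor that live within the epithelium; 22 libraries of mice aged 10 weeks, 2 mice pooled per library per the study's methods) and intestinal epithelial cells, IECs (16 libraries of mice aged 7 weeks), both from the duodenum, jejunum and ileum, and whole small intestine and colon (27 libraries labelled YNG, with no age given). The γδ IEL groups held 4 WT libraries per segment and 3 (duodenum), 4 (jejunum) and 3 (ileum) Btnl2-KO libraries, the IEC groups 3, 3 and 2 WT and 2, 3 and 3 Btnl2-KO libraries, and the tissue groups 7 WT and 7 Btnl2-KO small intestine and 6 WT and 7 Btnl2-KO colon libraries. IECs were the top layer of a Percoll gradient after stripping with EDTA. Single-cell RNA-sequencing of γδ IELs sorted as CD45+ TCRβ- TCRγδ+ cells from mice aged 8 to 10 weeks gave 6 libraries, 1 for each segment and genotype, so nothing in them was tested between conditions. Per the study's methods, part of each sorted sample went to bulk sequencing and the rest was pooled by segment and genotype for single cells. The bulk and single-cell γδ IEL libraries are therefore not independent.

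Chemokines are small secreted proteins that guide leukocytes through G protein-coupled receptors. Ccl3, Ccl4 and Ccl5 are inflammatory CC chemokines released by activated T cells and NK cells, and Xcl1 attracts Xcr1+ dendritic cells. Ccl25, made by small intestinal epithelium, recruits Ccr9+ lymphocytes; Ccl28 recruits Ccr10+ plasma cells to mucosal surfaces; Ccl20 draws Ccr6+ cells to the epithelium over lymphoid follicles. Cxcl16 and Cx3cl1 are made as membrane-bound forms that bind Cxcr6 and Cx3cr1, and Ccl6 is a mouse CC chemokine that signals through Ccr1.

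Total counts ranged from 13444964 to 30029485 in γδ IEL, 15397757 to 38258478 in IEC and 13619314 to 21708727 in tissue libraries, and the 23569 cells kept had medians of 4877 to 5468 UMIs (unique molecular identifiers, 1 per captured transcript) per library. Btnl2, the targeted gene, was at 0 to 0.124 CPM (counts per 1000000, on TMM-scaled library sizes) in Btnl2-KO against 2.47 to 9.78 in WT γδ IELs. Among IECs, 3 Btnl2-KO libraries stood apart: the library labelled duodenum Btnl2-KO 1 held 5.48 CPM of Btnl2 and 221.5 CPM of the ileal gene Fabp6, the library labelled jejunum Btnl2-KO 2 held 18.8 and 467.2 CPM, and the library labelled ileum Btnl2-KO 1 held 0.240 CPM of Fabp6 and 158.6 CPM of the proximal gene Gata4. In whole small intestine, Gata4 reached 96.6 CPM in Btnl2-KO 1, 83.5 in WT 5 and 15.1 in WT 7. Results that rest on these libraries are given with and without them where the difference matters. Fabp6 was at 435 CPM in Btnl2-KO 1, 106 in WT 5 and 1175 in WT 7 of the small intestine. The other small intestine libraries held 0.170 to 2.29 CPM of Gata4 and 1577 to 3959 CPM of Fabp6. By these genes most small intestine libraries were ileum-like, and their labels (SI) name no segment. Whole tissue here means tissue not split into cell fractions. The single-cell libraries shared 19 to 31 barcodes per pair.

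Promoter sequences from RefSeq (GRCm38.p6; the 250 bases before an annotated start) are shown for 5 chemokines, of which Cx3cl1, Ccl28 and Xcl1 separated the fractions and Ccl25, Ccl28, Ccl20 and Xcl1 were called between segments or organs below. Capitals mark matches, on either strand, to 6 motifs. Of 32851 promoters of the same length, 10.8% held the CDX-type letters TTTATG. The AP-1-type letters TGANTCA were in 6.75% of them. The HNF4-type letters CAAAGTCC were in 1.2%, the letters TATAAA in 12.4% and a κB-type motif in 45.8%. The GATA-type letters AGATAA were in 9.99%. Ccl25 (chromosome 8, 4325205 to 4360020) has 2 annotated starts. The window of the upstream start was 74.8% G and C and held no match, while that of the downstream start held a CDX-type match at -192 on the minus strand and TATAAA at -16. Ccl28 (chromosome 13, 119623819 to 119654359) held 1 κB-type match at -64, Ccl20 (chromosome 1, 83116766 to 83119167) 4 overlapping κB-type matches on both strands at -82 to -80, Cx3cl1 (chromosome 8, 94772180 to 94782427) TATAAA at -6, and Xcl1 (chromosome 1, 164931644 to 164935522) none. A match is a description of these letters and not a binding site.
Ccl25, upstream start, chr8:4324960-4325209, plus strand: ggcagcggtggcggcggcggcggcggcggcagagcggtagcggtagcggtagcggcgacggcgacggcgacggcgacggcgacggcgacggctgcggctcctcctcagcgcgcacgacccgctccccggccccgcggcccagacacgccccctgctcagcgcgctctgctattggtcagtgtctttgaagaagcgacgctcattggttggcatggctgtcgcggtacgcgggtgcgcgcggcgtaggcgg
Ccl25, downstream start, chr8:4349338-4349587, plus strand: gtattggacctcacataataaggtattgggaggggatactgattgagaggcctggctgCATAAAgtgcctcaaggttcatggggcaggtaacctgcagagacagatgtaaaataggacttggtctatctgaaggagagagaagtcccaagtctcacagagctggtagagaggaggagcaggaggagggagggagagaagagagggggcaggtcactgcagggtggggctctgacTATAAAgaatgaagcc
Ccl28, chr13:119623569-119623818, plus strand: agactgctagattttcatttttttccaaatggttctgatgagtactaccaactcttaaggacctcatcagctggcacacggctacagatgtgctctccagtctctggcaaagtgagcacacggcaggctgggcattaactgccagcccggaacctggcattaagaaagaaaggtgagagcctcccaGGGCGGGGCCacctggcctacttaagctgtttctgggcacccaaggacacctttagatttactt
Ccl20, chr1:83116516-83116765, plus strand: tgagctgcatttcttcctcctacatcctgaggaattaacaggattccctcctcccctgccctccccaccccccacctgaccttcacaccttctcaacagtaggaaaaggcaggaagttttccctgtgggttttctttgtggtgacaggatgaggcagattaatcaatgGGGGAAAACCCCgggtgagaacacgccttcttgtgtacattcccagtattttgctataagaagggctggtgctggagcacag
Cx3cl1, chr8:94771930-94772179, plus strand: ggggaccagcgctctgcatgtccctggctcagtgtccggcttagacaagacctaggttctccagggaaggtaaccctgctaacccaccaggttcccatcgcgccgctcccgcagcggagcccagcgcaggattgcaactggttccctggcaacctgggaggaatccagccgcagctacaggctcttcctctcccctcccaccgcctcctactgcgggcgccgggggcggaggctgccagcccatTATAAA
Xcl1, chr1:164935523-164935772, minus strand: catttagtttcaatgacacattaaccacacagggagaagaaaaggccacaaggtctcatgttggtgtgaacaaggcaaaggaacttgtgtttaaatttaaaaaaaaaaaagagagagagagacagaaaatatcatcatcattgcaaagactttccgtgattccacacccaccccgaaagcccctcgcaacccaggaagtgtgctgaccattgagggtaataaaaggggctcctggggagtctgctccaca

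Which fraction held each chemokine was read first from WT libraries. Ccl3, Ccl4, Ccl5 and Xcl1 were γδ IEL transcripts, Ccl28 and Cx3cl1 were higher in IECs, Ccl25 and Ccl6 were present in both fractions, and Ccl20 and Cxcl16 did not exceed 2.5 CPM in either. The tables were normalized separately, and the fractions also differed in experiment and mouse age, which cannot be told apart from the fraction, so these ratios are descriptions with no test.

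Ccl5 was by far the most abundant of the 10 genes in γδ IELs. In the duodenum, WT replicates 1 to 4 held 11986, 7631, 7467 and 12104 CPM (mean 9797 ± 2597, SD, n = 4). Jejunal libraries held 6788, 5365, 7086 and 5471 CPM (6178 ± 886), and ileal libraries 11114, 7165, 7888 and 6418 (8146 ± 2068). WT IECs held 10.1 to 47.3 CPM. All 4 duodenal libraries lay above all 4 jejunal libraries, while the ileal range overlapped both, and every γδ IEL library exceeded every IEC library.

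For Ccl5 the γδ IEL mean exceeded the IEC mean 537-fold in duodenal, 191-fold in jejunal and 285-fold in ileal samples. For Ccl4 the ratios were 611, 264 and 478, and for Ccl3 176, 172 and 152, over IEC counts of 4 to 36 per library. For Xcl1 they were 709.5, 183.5 and 913, over IEC counts of 4 to 21 per library, so the IEC side of these ratios carries a large counting error. They lay in the range of the 11 γδ IEL markers found in the tables, such as Cd3e, Cd160 and Gzmb, whose ratios ran from 57.9 to 825 in duodenal, 72.0 to 404 in jejunal and 43.6 to 779 in ileal libraries, with the ileal Xcl1 ratio above that range.

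Per kilobase of annotated exon, WT duodenal γδ IELs held 18420 CPM of Ccl5, 491 of Ccl4, 463 of Xcl1, 156 of Ccl25, 89.4 of Ccl3, 50.5 of Ccl6, 1.97 of Ccl28 and 1.92 of Cx3cl1. On the same per-kilobase scale, WT duodenal IECs held 109 CPM of Ccl25, 103 of Ccl6, 34.3 of Ccl5, 21.5 of Ccl28 and 16.7 of Cx3cl1. Ccl5 thus led in the lymphocyte fraction, and Ccl25 and Ccl6 in the epithelial fraction. The annotated spans of Ccl3 and Ccl4 overlap on chromosome 11 (83647843 to 83649378 and 83648624 to 83664683), so a part of their reads could be assigned to either gene.

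**Figure D1:**
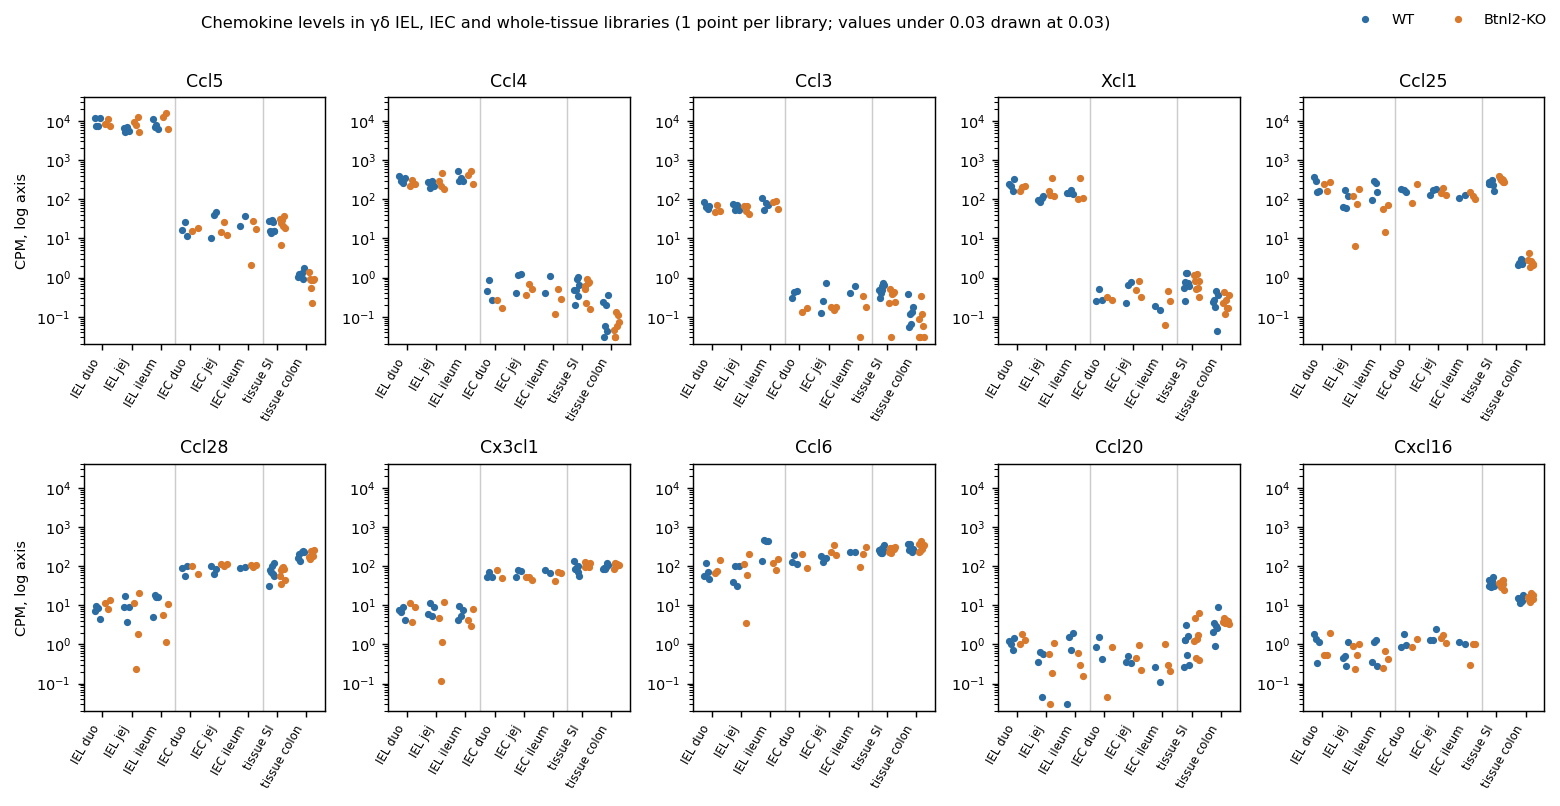
Level of each of the 10 chemokines (CPM, log axis; values under 0.03 drawn at 0.03) in every bulk library, in γδ IELs and IECs of duodenum, jejunum and ileum and in whole small intestine and colon. Each point is 1 library, with WT in blue and Btnl2-KO in orange; Ccl5 sits between 5316 and 15955 CPM in γδ IELs, and Ccl25 between 1.87 and 4.28 CPM in colon.

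Ccl28 and Cx3cl1 had the opposite placement. Ccl28 was at 88.6, 54.5 and 98.2 CPM in WT duodenal, 102, 64.9 and 82.5 in jejunal and 87.6 and 94.5 in ileal IECs, against 3.80 to 18.7 CPM over the 12 WT γδ IEL libraries. Cx3cl1 was at 52.8, 71.0 and 53.4 CPM in WT duodenal, 52.9, 81.1 and 73.1 in jejunal and 81.9 and 68.3 in ileal IECs, against 4.18 to 11.7 CPM in γδ IELs. The ranges of the fractions did not overlap for either gene: IEC means were 10.9-, 8.33- and 6.495-fold higher for Ccl28 and 8.70-, 8.53- and 11.2-fold higher for Cx3cl1 in duodenum, jejunum and ileum.

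Ccl25 was found in both fractions, with the γδ IEL mean above the IEC mean in duodenum and ileum and below it in the jejunum. WT IECs held 185, 174 and 151 CPM in duodenal, 126, 177 and 188 in jejunal and 108 and 126 in ileal libraries. WT γδ IELs held 366, 287, 158 and 161 CPM in duodenal, 62.1, 170, 59.2 and 125 in jejunal and 95.1, 286, 255 and 157 in ileal libraries. The γδ IEL over IEC ratios of the means were 1.43, 0.636 and 1.69, while those of 12 epithelial markers, such as Epcam, Cdh1 and Krt8, had medians of 0.415, 0.315 and 0.530. The highest ratios of these 12 were 0.725, 0.465 and 1.19, all below Ccl25. Other epithelial genes exceeded it: 7 goblet cell genes, such as Muc2, had medians of 0.492, 0.272 and 0.743 but highest ratios of 2.27, 0.732 and 2.66. The Ccl25 ratios thus lay within the span of epithelial genes. Over the epithelial markers summed, WT γδ IEL libraries held 2035 to 9272 CPM, so epithelial transcripts were present in the sorted fraction. The differences of Ccl25 with the epithelial mean as a covariate are given with the segments and genotypes below.

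Ccl6 was at 131, 198 and 115 CPM in WT duodenal, 186, 130 and 163 in jejunal and 223 and 236 in ileal IECs. In WT γδ IELs its duodenal levels were 54.5, 120, 69.4 and 47.4 CPM, its jejunal levels 38.4, 103, 31.3 and 103 CPM and its ileal levels 138, 469, 439 and 443 CPM. The ratio of γδ IELs to IECs was 0.492 and 0.431 in the first segments and 1.62 in the ileum, and the median ratio of 4 Paneth cell genes (Lyz1, Ang4, Mmp7 and Itln1) took the same order, at 0.734, 0.505 and 3.66. Paneth cells are secretory epithelial cells at the crypt base.

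For each of the γδ IEL chemokines, the 3 genes with the most similar pattern over the 22 γδ IEL libraries (Pearson's r of log2(CPM + 1) among 9966 genes) were recorded as a description; the libraries share depth, segment and genotype effects. Ccl3 was closest to Ccl4 (r = 0.891), Ccl4 to Med10 (0.94), Ccl5 to Npc2 (0.967) and the cytotoxic granule gene Nkg7 (0.966), and Xcl1 to 2410006H16Rik (0.934) and Rps15a (0.933). Over the 16 IEC libraries and 9374 genes, Ccl25 was closest to Scp2 (0.912), Ccl28 to Cpne3 (0.954), Cx3cl1 to Trp53inp2 (0.956), Ccl6 to the Paneth cell protease Mmp7 (0.882) and Ccl20 to Supt4a (0.901). Cxcl16 was closest to the T cell receptor component Cd3g (0.862), and it followed the mean of the γδ IEL markers (0.841) more than that of the epithelial markers (0.272). Mean levels in WT IECs were 1.12 to 1.68 CPM for Cxcl16 and 0.184 to 0.930 for Ccl20, so their r rest on few counts. The γδ IEL over IEC ratios of Cxcl16 were 0.975, 0.354 and 0.699 in duodenum, jejunum and ileum, so it was not higher in γδ IELs. Cx3cl1 followed the epithelial mean (0.886), while Ccl25 and Ccl28 had r of -0.344 and -0.285 with it.

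The 3 segments of WT γδ IELs were then compared in 1 fit over 12899 genes. A gene was called when its Benjamini-Hochberg adjusted p in edgeR's quasi-likelihood test (false discovery rate, FDR) was under 0.05 and its fold change above 1.5. In the jejunum against the duodenum, 3 of the 10 chemokines were called, all lower, where 22.5% of all genes were called. The levels of the segments did not overlap for 3 of the 10 (Ccl5, Xcl1 and Ccl20), against 34.3% of all genes, so neither count set the chemokines apart from other genes. In the ileum against the duodenum 1 of 10 was called (all genes: 2.11%) and 1 did not overlap (6.23%), and in the ileum against the jejunum 1 was called (21.9%) and 2 did not overlap (32.0%).

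Xcl1 was lowest in the jejunum. WT replicates 1 to 4 held 243, 223, 164 and 338 CPM in the duodenum (mean 242 ± 72.0, SD, n = 4), 94.1, 85.4, 108 and 118 in the jejunum (101.5 ± 14.6) and 148, 147, 169 and 138 in the ileum (150.8 ± 13.2). The jejunal libraries lay below all others, and the duodenal and ileal ranges overlapped only through duodenal replicate 3. Xcl1 was 2.38-fold lower in the jejunum than in the duodenum (log2 fold change -1.25, SE 0.18, edgeR FDR 0.00208). Against the jejunum, the ileal level was 1.49-fold higher (log2 0.58, edgeR FDR 0.0270), under the 1.5-fold limit, and against the duodenum it was lower by a log2 difference of -0.67 (SE 0.18, edgeR FDR 0.0806). That last difference passed in DESeq2 (log2 -0.68, FDR 0.0182) and in edgeR without duodenal replicate 3 (log2 -0.82, FDR 0.0173).

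Ccl5 was 1.58-fold lower in the jejunum than in the duodenum (log2 -0.66, SE 0.23, edgeR FDR 0.0391). The call was lost without duodenal replicate 1 or 4, ileal replicate 3 or any of the 4 jejunal replicates, 7 of the 12 libraries, with edgeR FDRs of 0.0509 to 0.119. Ccl4, at 398, 294, 259 and 346 CPM in duodenal, 279, 200, 293 and 221 in jejunal and 525.9, 301, 354 and 289 in ileal libraries, was 1.49-fold higher in the ileum than in the jejunum (log2 0.57, edgeR FDR 0.0460), also under the limit. With the epithelial mean or, in a setting added after seeing the data, the Paneth mean as a covariate that difference was 0.92 (edgeR FDR 0.0106) and 1.18 (edgeR FDR 0.0296) and passed. The Paneth sums of ileal and jejunal libraries did not overlap (8166 to 29690 against 709.8 to 7411 CPM). The fit with the Paneth mean thus cannot separate these genes from the segment, and no conclusion on Ccl4 is drawn from it. Ccl3, at 51.8 to 108.9 CPM over the 12 libraries, overlapped between all segments (edgeR FDR at least 0.251).

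Ccl25 was 2.34-fold lower in jejunal than in duodenal γδ IELs (log2 -1.23, SE 0.40, edgeR FDR 0.0314). Its ranges overlapped, and the call was lost without duodenal replicate 1 or 2 or jejunal replicate 1, 3 or 4 (log2 -0.97 to -1.32, edgeR FDR 0.0525 to 0.109). With the mean of the epithelial markers as a covariate it passed at a log2 difference of -0.93 (edgeR FDR 0.00142). Between ileum and jejunum, the Ccl25 difference of 0.94 (log2), which was not called, was -0.03 with the same covariate (edgeR FDR 0.919). Ccl6 was 5.13-fold higher in the ileum than in the duodenum (log2 2.36, SE 0.46, edgeR FDR 0.0151) and 5.45-fold higher than in the jejunum (log2 2.45, SE 0.46, edgeR FDR 0.00462). The lowest ileal library, replicate 1 at 138 CPM, still lay above the highest library of the other segments. Against the duodenum the call was lost without duodenal replicate 1 (FDR 0.0629) or 4 (FDR 0.0553). In 1 fit over all 22 γδ IEL libraries the calls of Ccl6 against the duodenum and of Ccl25 and Ccl5 between jejunum and duodenum were lost (edgeR FDR 0.162, 0.172 and 0.105).

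The summed Paneth cell genes moved with Ccl6. They reached 8166 to 29690 CPM in WT ileal γδ IELs, against 1189 to 5738 in the duodenum and 709.8 to 7411 in the jejunum. With the epithelial mean as a covariate the ileal differences of Ccl6 still passed, at log2 1.55 against the duodenum (edgeR FDR 0.000977) and 1.37 against the jejunum (edgeR FDR 0.0128). With the Paneth mean as a covariate they were 0.74 against the duodenum and 0.85 against the jejunum on the log2 scale, and neither passed (edgeR FDR 0.507 and 0.121). The Paneth sums of the ileal libraries did not overlap those of the other segments, so this covariate cannot be told apart from the segment. That fit therefore cannot show whether Ccl6 differed beyond the Paneth genes.

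**Figure D2:**
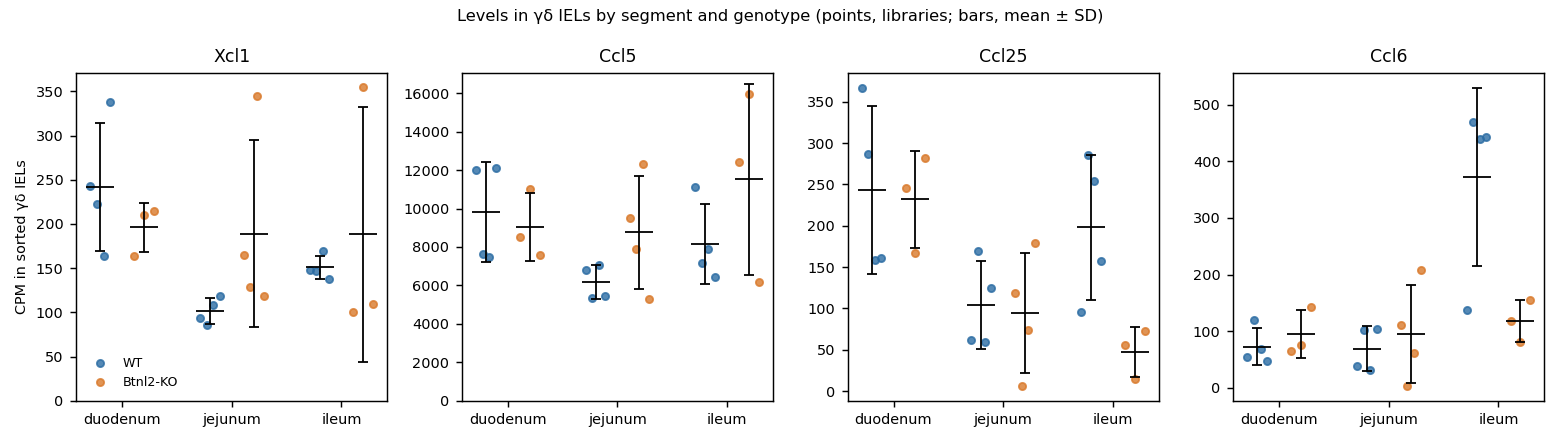
Levels (CPM) of Xcl1, Ccl5, Ccl25 and Ccl6 in bulk γδ IELs by segment and genotype; points are libraries, and bars give the mean ± SD (n = 3 or 4). WT ileal Ccl6 averages 372 CPM against 72.7 in the duodenum, and Btnl2-KO ileal Ccl25 averages 47.4 CPM against 198 in WT.

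The receptors of these chemokines in WT γδ IELs were led by Cxcr6 and Ccr9. Mean Ccr9 was 271 CPM in duodenal, 471 in jejunal and 301 in ileal libraries, so that the segment with the lowest mean of Ccl25 in the γδ IEL libraries had the most Ccr9 (jejunum minus duodenum, log2 0.80, SE 0.17, edgeR FDR 0.00431; ileum minus jejunum, log2 -0.64, edgeR FDR 0.0123). In WT IECs mean Ccl25 was 170, 164 and 117 CPM in duodenal, jejunal and ileal libraries, so it was lowest in the ileum there and not in the jejunum. In WT γδ IELs, Cxcr6 was at 334, 381 and 324 CPM and Xcr1 at 6.70, 4.87 and 7.17. The other 5 receptors did not exceed a mean of 0.41 CPM in any WT segment. Of 27 other chemokines, 3 were tested in these libraries, and the calls were Ccl9, higher in the ileum than in the jejunum (32.3 against 7.88 CPM, log2 2.04, edgeR FDR 0.0146), and Ccl27a, lower in the jejunum than in the duodenum (log2 -1.13, edgeR FDR 0.0401). Of 14 other receptors, Ccr7 was higher in the jejunum than in the duodenum (3.62 against 1.33 CPM, log2 1.44, edgeR FDR 0.00953).

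In WT IECs, none of the 10 chemokines was called by edgeR between segments (13046 genes; background 6.59% for ileum against duodenum, 0.767% for jejunum against duodenum and 0.644% for ileum against jejunum). At an unadjusted p under 0.05 there were 3, 1 and 1 of 10 (19.3, 14.5 and 6.42% of all genes), and DESeq2 called 1, 0 and 0 of 10 (10.2, 3.27 and 2.19% of all genes). Levels did not overlap for 4 of 10 between ileum and duodenum (36.7% of all genes), 0 between jejunum and duodenum (20.1%) and 5 between ileum and jejunum (22.1%), with only 2 ileal libraries. Ccl20 was the gene DESeq2 called: it was at 0.847, 1.53 and 0.416 CPM in the duodenum and 0.259 and 0.109 CPM in the ileum (edgeR log2 -2.30, SE 0.66, FDR 0.0806; DESeq2 log2 -2.34, FDR 0.0343), from 3 to 33 counts per library. Ccl25 was lower in the ileum by a log2 difference of -0.54 (edgeR FDR 0.224) and Ccl6 higher by 0.64 (edgeR FDR 0.219; without duodenal replicate 2, 0.90 and 0.0253). Of the other chemokines and receptors, only Ccr4 was called by edgeR in IECs (ileum against duodenum 1.67 against 0.208 CPM, log2 2.93, FDR 0.0130).

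Between whole colon and small intestine, 5 of the 7 chemokines tested in WT mice were called. Ccl25, Ccl5 and Cxcl16 were lower and Ccl28 and Ccl20 higher in the colon, while Cx3cl1 and Ccl6 did not pass. In WT mice 15162 genes were tested, of which 27.6% were called. Levels did not overlap for 4 of 7 (Ccl5, Ccl25, Ccl28 and Cxcl16), against 24.7%. In Btnl2-KO mice 4 of 7 were called (30.2% of all genes) and 4 of 7 did not overlap (27.1%). In bulk samples, fewer cells of a type and less RNA per cell cannot be told apart.

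Ccl25 had the lowest, median and highest levels of 164, 246 and 317 CPM in WT small intestine (n = 7) and 2.08, 2.40 and 3.01 CPM in WT colon (n = 6). Every colon library lay far below every small intestine library. Ccl25 was 101-fold lower in the colon (log2 -6.66, SE 0.17, edgeR FDR 5.23e-12). In Btnl2-KO mice it had 278, 315 and 403 CPM in the small intestine and 1.87, 2.41 and 4.28 in the colon (n = 7 each), and was 125.5-fold lower (log2 -6.97, SE 0.17, edgeR FDR 9.15e-14).

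Ccl5 had 13.7, 15.9 and 28.9 CPM in WT small intestine and 0.906, 1.20 and 1.80 CPM in WT colon, without overlap, and was 16.7-fold lower in the colon (log2 -4.06, SE 0.25, edgeR FDR 1.55e-08). In Btnl2-KO mice the values were 6.99, 25.3 and 37.96 against 0.229, 0.870 and 1.35 CPM (log2 -4.88, SE 0.37, edgeR FDR 2.01e-08). The summed γδ IEL markers moved with it: 110 to 200 CPM in WT small intestine and 12.8 to 21.8 in WT colon, and 85.1 to 254 against 13.5 to 23.5 in Btnl2-KO mice. The part of these cells in the Ccl5 difference was not tested. Ccl3, Ccl4 and Xcl1, the other γδ IEL chemokines, reached at most 0.735, 1.02 and 1.32 CPM in WT small intestine and were too low to be tested.

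Cxcl16 was the third gene lower in the colon, with 28.7, 33.1 and 51.8 CPM in WT small intestine and 11.7, 15.2 and 17.9 in WT colon, and with 24.4, 36.0 and 43.2 against 11.95, 14.7 and 21.2 CPM in Btnl2-KO mice. The organs did not overlap in either genotype. It was 2.54-fold lower in WT (log2 -1.34, SE 0.15, edgeR FDR 4.74e-06) and 2.27-fold lower in Btnl2-KO colon (log2 -1.18, edgeR FDR 2.71e-06). Since neither γδ IELs nor IECs exceeded 2.5 CPM of Cxcl16, its level in whole tissue was far above that in either isolated fraction. The summed myeloid markers were at 158 to 415.9 CPM in WT small intestine and 80.0 to 225 in WT colon, and their part in the Cxcl16 level was not tested.

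Ccl28 was higher in the colon. It had 31.9, 69.9 and 122.5 CPM in WT small intestine and 139, 219 and 245 in WT colon, without overlap, and was 2.68-fold higher (log2 1.42, SE 0.25, edgeR FDR 0.000326). In Btnl2-KO mice it had 36.0, 82.0 and 96.0 CPM in the small intestine and 155, 186 and 259 in the colon, again without overlap, and was 2.86-fold higher (log2 1.52, edgeR FDR 1.56e-05). With the epithelial marker mean as a covariate the Btnl2-KO differences of Ccl28 (log2 1.15, edgeR FDR 0.265) and Cxcl16 (log2 -0.45, edgeR FDR 0.475) no longer passed. The summed epithelial markers were at 11150 to 16410 CPM in Btnl2-KO colon and 15340 to 20170 in Btnl2-KO small intestine. With so little overlap these fits cannot separate the organ from the markers. Ccl20 had 0.270, 1.30 and 3.09 CPM in WT small intestine and 0.927, 2.79 and 9.06 in WT colon, with overlap (log2 1.53, SE 0.55, edgeR FDR 0.0344). Its call was lost without colon replicate 2 or 6 or small intestine replicate 1, 5 or 7 (log2 1.001 to 1.534, edgeR FDR 0.0543 to 0.132). It was also lost without the 2 WT small intestine libraries over 10 CPM of Gata4 (log2 1.18, edgeR FDR 0.108), a setting added after seeing the data, under which the other 4 calls held, and with the epithelial marker mean as a covariate (log2 1.68, edgeR FDR 0.110). In Btnl2-KO mice Ccl20 did not pass (log2 0.70, edgeR FDR 0.214).

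Cx3cl1 and Ccl6 were abundant in both organs. Cx3cl1 had 55.9, 85.9 and 138.5 CPM in WT small intestine and 82.5, 90.5 and 118 in WT colon (log2 0.06, edgeR FDR 0.791). Ccl6 had 214, 262 and 341 CPM in WT small intestine and 225, 274 and 375 in WT colon (log2 0.19, edgeR FDR 0.290). The ranges overlapped almost fully for both. The summed Paneth cell genes were at 4818 to 12880 CPM in WT small intestine and 17.7 to 519 CPM (median 142) in WT colon. These markers were thus far lower in WT colon, where Ccl6 was not. In Btnl2-KO colon the same markers were at 15.8 to 2491 CPM (median 37.1). Per kilobase, WT colon held 206 CPM of Ccl6, 54.0 of Ccl28, 27.0 of Cx3cl1, 5.47 of Cxcl16 and 1.59 of Ccl25, and WT small intestine 180 of Ccl6, 159 of Ccl25, 38.7 of Ccl5, 25.7 of Cx3cl1, 20.1 of Ccl28 and 13.8 of Cxcl16.

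**Figure D3:**
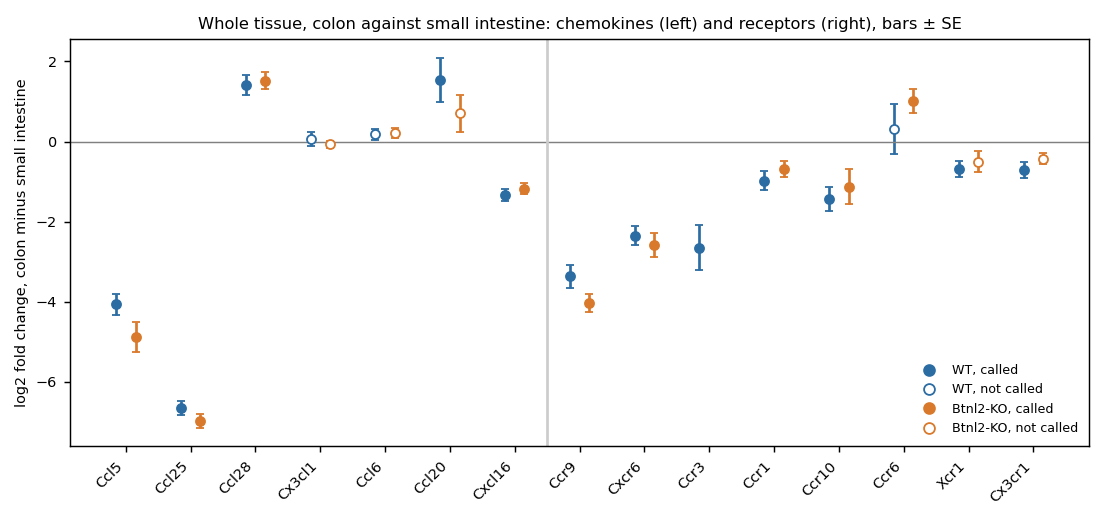
Log2 fold change of colon against small intestine (± SE, edgeR) for 7 chemokines and 8 receptors in WT and Btnl2-KO mice; filled points passed the FDR and fold limits. Ccl25 lies at -6.66 in WT and -6.97 in Btnl2-KO mice, and Ccl28 at 1.42 and 1.52.

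The receptors were mostly lower in the colon. In WT mice 7 of 8 were called lower and none higher (27.6% of all genes were called in either direction). Ccr9, the receptor of Ccl25, was lower in the colon like its ligand (15.95 against 1.55 CPM, log2 -3.37, SE 0.28, edgeR FDR 2.45e-07), as was Cxcr6, the receptor of Cxcl16 (6.57 against 1.29 CPM, log2 -2.35, edgeR FDR 1.31e-06). Ccr10, the receptor of Ccl28, was lower in the colon while Ccl28 was higher (4.01 against 1.48 CPM, log2 -1.43, edgeR FDR 0.00132). In Btnl2-KO mice 4 of the 7 receptors tested were lower and 1, Ccr6, was higher (log2 1.02, edgeR FDR 0.00917). The summed B and plasma cell markers were at 1300 to 3081 CPM in WT small intestine and 321 to 595 in WT colon, and their part in the level of Ccr10, which plasma cells carry, was not tested.

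Of 27 other chemokines, 18 were tested in WT tissue, with 10 lower and 1 higher in the colon. The interferon-induced ligands of Cxcr3 were among the lower ones: Cxcl9 (log2 -3.48, edgeR FDR 2.85e-05), Cxcl11 (log2 -2.59, FDR 0.000966) and Cxcl10 (log2 -1.08, FDR 0.00638), as was Cxcr3 itself (log2 -2.24, FDR 1.70e-05). Ccl22, Ccl8, Ccl11, the eosinophil attractant, and Ccl9 were lower by log2 differences of -2.01, -2.05, -1.65 and -1.38, and Cxcl5, Ccl2 and Cxcl14 were lower as well. Pf4, the platelet chemokine, was higher (log2 0.85, edgeR FDR 0.00947). In Btnl2-KO tissue 9 were lower and 2 higher of 17 tested, the latter being Pf4 (log2 1.30, edgeR FDR 8.91e-06) and the B cell attractant Cxcl13 (log2 1.26, edgeR FDR 0.00212), whose receptor Cxcr5 was also higher (log2 2.68, edgeR FDR 6.21e-05).

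The single-cell libraries resolved which cells of the sorted γδ IELs held each transcript. The cells were clustered without the 10 chemokines, into 8 clusters. Cluster 0 (9244 cells; Tyrobp, Cd200r2, Il2rb), cluster 2 (7389 cells; Gzmk, Scin, Il7r) and cluster 1 (5632 cells; Tgm2, Kit, Cd160, Tcf7) were the largest, with the γδ IEL markers summing to 84400, 64240 and 20290 CPM. Smaller clusters were recently activated-like (cluster 4, 255 cells; Nr4a1, Egr2, Egr1, Tnf), interferon-like (cluster 5, 182 cells), circulating-like (cluster 6, 178 cells; Klf2, Lef1, S1pr1) and proliferating-like (cluster 7, 305 cells; Stmn1, Birc5, with Mcpt1 and Mcpt2 leading). Cluster 3 (384 cells) was led by Paneth cell genes, had a median of 2080.5 UMIs and was left unnamed. Levels below are sums over the 6 libraries, and their intervals cover counting error only.

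Ccl5 took 5063527 of all UMIs. It was at 51610 CPM in cluster 0 and 50980 in cluster 2, but at 7655 in cluster 1 and 1321 in cluster 6, with medians of 252, 222, 24 and 0 UMIs per cell. A Ccl5 UMI was found in 99.99% of cells in cluster 0, in all 7389 cells of cluster 2, in 89.65% in cluster 1 and in 27.53% in cluster 6. The 39 epithelial-like cells described further on, which should lack Ccl5, held it at 1461 CPM and in 61.5% of cells, with a median of 31547 UMIs per cell against 3784 in cluster 6. In cluster 6 the Ccl5 UMIs were uneven: 90% of its cells held at most 1, and 1 cell held 351 of the 969.

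Xcl1 had another pattern. It was at 903 CPM (95% exact Poisson interval 893 to 914) in cluster 1, against 64.8 in cluster 0 and 27.1 in cluster 2. Of 5632 cluster 1 cells, 3830 held an Xcl1 UMI (66.8 to 69.2%, exact binomial), against 6.90 and 6.74% in clusters 0 and 2, and none of the 39 epithelial-like cells did, which allows a share of up to 7.69%. With every cell thinned to 3300 UMIs the shares were 60.5, 5.53 and 5.36%. Cluster 1, 23.9% of the cells, held 80.3% of all 35476 Xcl1 UMIs.

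Ccl4 and Ccl3 were concentrated in the recently activated-like cluster 4. Ccl4 was at 12660 CPM (12480 to 12850) there, against 505 in cluster 0, 480 in cluster 2 and 52.1 in cluster 1, with a median of 51 UMIs per cell and up to 374. Ccl3 was at 2439 CPM (2359 to 2521) in cluster 4, against 198, 169 and 17.2 in clusters 0, 2 and 1. Cluster 4 made up 1.08% of the cells and held 27.5% of the Ccl4 and 16.4% of the Ccl3 UMIs. In it 98.4% of cells held Ccl4 (96.0 to 99.6%) and 80.4% held Ccl3, and 97.1 and 71.3% after thinning. Xcl1 was at 767 CPM in cluster 4 but in 26.7% of its cells.

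**Figure D4:**
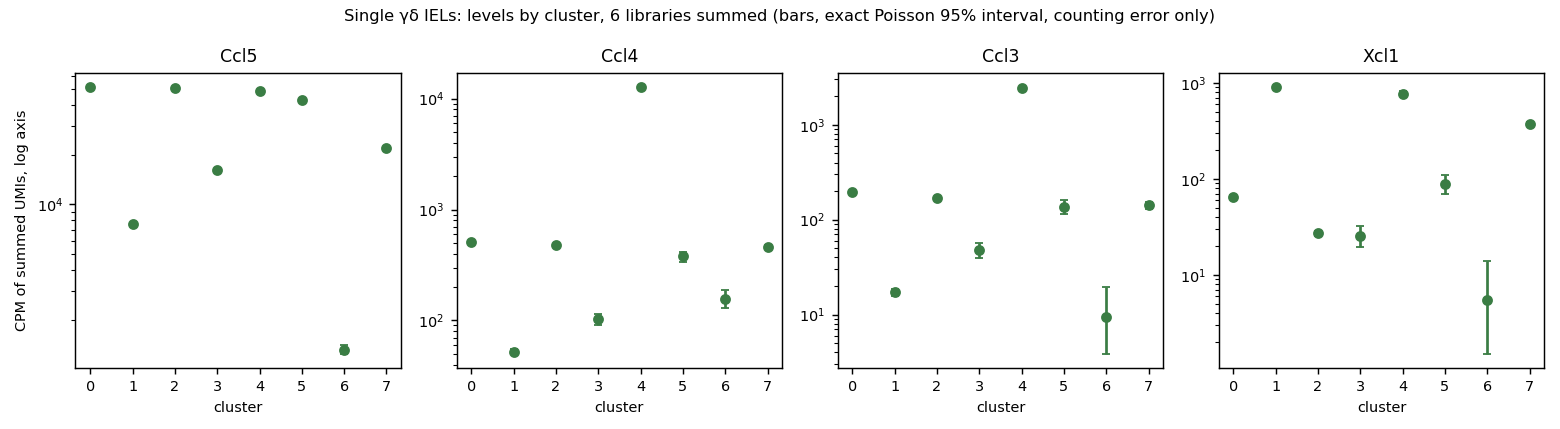
Level (CPM, log axis) of Ccl5, Ccl4, Ccl3 and Xcl1 in the 8 clusters of sorted γδ IELs, summed over the 6 single-cell libraries; bars on the points are 95% exact Poisson intervals, which cover counting error only. Ccl4 and Ccl3 peak in cluster 4 at 12660 and 2439 CPM, and Xcl1 in cluster 1 at 903 CPM.

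Across cells, Ccl4 was found in 72.9% of the 8970 cells with Ccl3, against 52.8% of all cells, and Xcl1 in 9.28% of the 12452 cells with Ccl4, against 22.0% of all cells. The 2786 cells with 5 or more Ccl4 UMIs held 72.3% of its UMIs, and the 1785 such cells for Xcl1 held 81.0%. The receptors differed along the same clusters: Ccr9 was at 124, 406 and 199 CPM in clusters 0, 1 and 2, and Cxcr6 at 132, 68.8 and 165. The Xcl1-high cluster 1 thus had the most Ccr9 and the least Cxcr6 of the 3 large clusters.

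Within cluster 3, the epithelial chemokines fell in few cells. Split into 5 subclusters, it held 39 epithelial-like cells (median 31547 UMIs; Fabp6, Zg16, Krt8; epithelial markers at 13500 CPM) and 33 Paneth-like cells (Paneth genes at 63290 CPM, with γδ IEL markers still at 17130 CPM). No doublet caller was run, and whether these barcodes hold more than 1 cell was not tested. Ccl25 had 482 of its 1178 UMIs (40.9%) in the epithelial-like cells, in 32 of 39 cells at 413 CPM. The remaining Ccl25 UMIs were spread thinly: in cluster 0, 248 UMIs lay in 247 of 9244 cells (2.67%, 4.80 CPM), and clusters 1 and 2 had 3.34 and 2.81% of cells and 6.00 and 5.65 CPM. Shares this low and this alike in the 3 large clusters are not read as expression by these cells, and their source was not tested.

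Ccl28 had 83.3% of its 48 UMIs and Cx3cl1 27 of its 30 UMIs in the epithelial-like cells, and the 3 Ccl20 UMIs were all there. Ccl6 had 72.2% of its 889 UMIs in the Paneth-like cells (1024 CPM, 11 of 33 cells) and 18.9% in the epithelial-like cells (8 of 39 cells), and 10 cells with 5 or more UMIs held 89.8% of it. Cxcl16 had 21 UMIs in all and none in cluster 3. Hence the Ccl25 and Ccl6 found in sorted γδ IELs by bulk sequencing had, in the single-cell libraries, their highest levels in epithelial-like and Paneth-like barcodes.

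**Figure D5:**
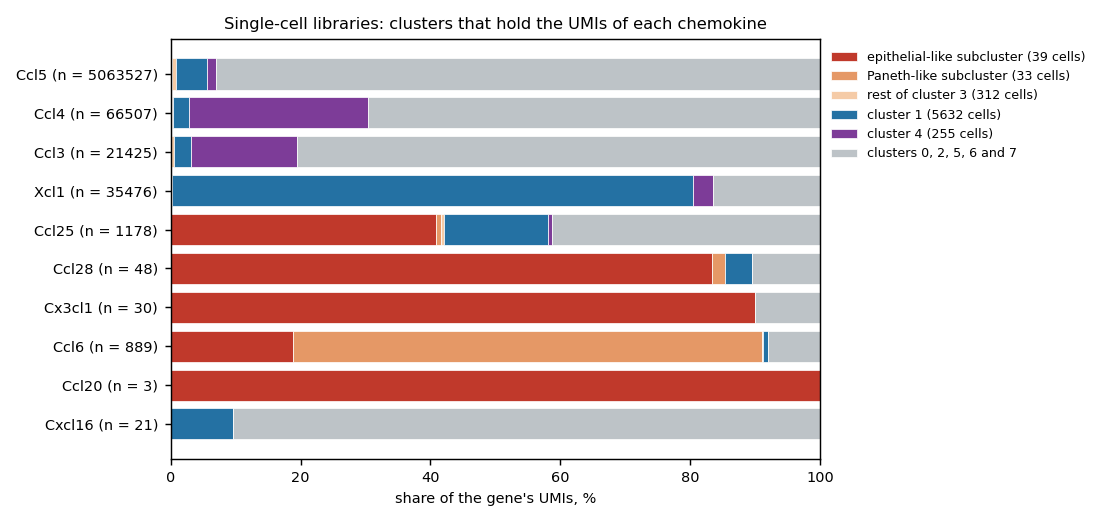
Share of each chemokine's UMIs (%, stacked bars, all 6 single-cell libraries) that fell in the epithelial-like cells, the Paneth-like cells, the rest of cluster 3, cluster 1, cluster 4 and all other clusters. The epithelial-like cells hold 40.9% of Ccl25 and 83.3% of Ccl28, the Paneth-like cells 72.2% of Ccl6 and cluster 1 80.3% of Xcl1; Ccl20, Cxcl16, Cx3cl1 and Ccl28 rest on 3, 21, 30 and 48 UMIs.

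By segment, Xcl1 in cluster 1 was highest in the duodenum in both genotypes. It was at 1145 CPM in Btnl2-KO and 1162 in WT duodenum, 964 and 784 in the jejunal pair and 805 and 659 in the ileal pair. Over whole libraries it was at 348 and 336 CPM in duodenal, 286 and 196 in jejunal and 254 and 212 in ileal libraries. In bulk WT γδ IELs, which share sorted samples with the single-cell libraries per the study's methods, the lowest segment was the jejunum. The jejunum was also lowest over whole WT single-cell libraries, while within cluster 1 the lowest WT segment was the ileum. With 1 library per group these differences have no replicate check. Ccl4 in cluster 4 was at 13010 CPM in Btnl2-KO and 12250 in WT duodenum, 9916 and 15200 in the jejunal pair and 10520 and 15010 in the ileal pair.

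The comparison of Btnl2-KO with WT mice asked whether loss of Btnl2 changed these levels. In none of 8 comparisons (γδ IELs and IECs of each segment, small intestine and colon) did edgeR call any of the 10 chemokines. Background calls were 0.00789, 0.00794 and 0.0% of all genes in duodenal, jejunal and ileal γδ IELs, 0.0, 0.0 and 0.00774% in IECs, and 0.0202 and 0.0269% in small intestine and colon, so that almost no gene was called by this test in any of them. Of 69 tests of a chemokine in these comparisons, 6 had an unadjusted p under 0.05, where 7.27% of all tests of all genes did. DESeq2 called 2, both among the 9 chemokines tested in ileal γδ IELs, where it called 1.75% of all genes.

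The genes DESeq2 called were Ccl25 and Ccl6. Ccl25 was at 55.2, 14.4 and 72.5 CPM in Btnl2-KO against 95.1, 286, 255 and 157 CPM in WT ileal γδ IELs, without overlap (1 of 9 tested; 6.93% of all genes). The log2 difference was -2.05 (SE 0.53, edgeR FDR 0.432; DESeq2 -2.08, FDR 0.00482). Ccl6 was at 119, 80.7 and 155 CPM in Btnl2-KO against 138, 469, 439 and 443 CPM in WT, overlapping through WT replicate 1, with a log2 difference of -1.63 (SE 0.41, edgeR FDR 0.432; DESeq2 -1.66, FDR 0.00585). Without WT replicate 1, edgeR called Ccl6 (log2 -1.91, FDR 0.0375).

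Epithelial transcripts as a whole moved with both genes: the summed epithelial markers were at 1033 to 3658 CPM in Btnl2-KO and 3474 to 9272 in WT ileal γδ IELs, the Paneth genes at 2798 to 8569 and 8166 to 29690, and Fabp6 at 94.1 to 134.7 and 322 to 613.5. With the epithelial mean as a covariate the differences were -0.59 for Ccl25 (edgeR FDR 0.616) and -0.56 for Ccl6 (edgeR FDR 0.637) on the log2 scale. With the Paneth mean they were -1.09 and -0.55 (both edgeR FDR 0.993). Both marker sums overlapped only slightly between the genotypes, so these fits cannot separate a genotype difference from a difference in the markers. The interaction term, which tests whether the genotype difference itself differed between ileum and duodenum, did not pass (Ccl25 log2 -1.99, SE 0.98; Ccl6 -2.04, SE 1.05; both edgeR FDR 0.716; background 0.0%). In ileal IECs, Ccl25 was at 157.9 CPM in the library labelled ileum Btnl2-KO 1 and at 119.3 and 101.9 CPM in the other Btnl2-KO libraries, against 108.4 and 125.5 in WT. The genotypes overlapped there with and without that library. Within Btnl2-KO γδ IELs none of the 10 was called by edgeR between ileum and duodenum (12901 genes, background 0.00775%), although Ccl25, with a log2 difference of -2.29 (SE 0.91, FDR 0.695), did not overlap, and 2 of 10 did not overlap against 15.9% of all genes. One, Ccl25, had an unadjusted p under 0.05 (6.77% of all genes), and DESeq2 called none (1.06%). With the epithelial or the Paneth mean as a covariate edgeR called Ccl25 (log2 -1.41, FDR 0.0368, and -2.72, FDR 0.00614). The epithelial sums were at 1033 to 3658 CPM in ileal and 3444 to 5834 in duodenal Btnl2-KO libraries and overlapped only slightly. The fit with the epithelial mean thus cannot separate the segment from the markers.

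In the jejunum, Xcl1 was at 164.5, 128, 345 and 119 CPM in Btnl2-KO and 94.1, 85.4, 108 and 118 in WT γδ IELs, the 1 chemokine of 10 without overlap (3.26% of all genes), with a log2 difference of 0.94 (SE 0.35, edgeR FDR 0.583). The highest value is that of jejunum Btnl2-KO 3, which also held 32.7 CPM of the ileal gene Fabp6, against 0 to 4.42 in the other jejunal γδ IEL libraries. Leaving out each replicate in turn, the Xcl1 difference ran from 0.451 to 1.102. In duodenal γδ IELs 0 of 10 did not overlap (3.03%). Jejunal IECs had 228, 340 and 197 CPM of Ccl6 in Btnl2-KO against 186, 130 and 163 in WT (log2 0.68, SE 0.24, edgeR FDR 0.568), 1 of 9 without overlap where 17.4% of all genes were. The highest value is that of the library labelled jejunum Btnl2-KO 2, and without it the log2 difference was 0.42 (edgeR FDR 0.667). In duodenal IECs 0 of the 7 chemokines tested did not overlap (11.0%). In ileal IECs Ccl3, Ccl28 and Cxcl16 did not, 3 of 9 tested (20.7%), and without the library labelled ileum Btnl2-KO 1 there were 4 of 9 (35.3%).

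In whole small intestine, Ccl25 was at 278, 315 and 403 CPM (lowest, median, highest) in Btnl2-KO and 164, 246 and 317 CPM in WT, with overlap. The log2 difference was 0.38 (SE 0.13, edgeR p 0.0103, FDR 0.135), so it did not pass. Without the 3 libraries over 10 CPM of Gata4 it was 0.30 (edgeR FDR 0.398). Ileal γδ IELs and whole small intestine thus had Ccl25 differences of opposite sign, neither past edgeR's threshold, and no test compared them. The other chemokines tested differed by log2 values between -0.10 and 0.96 in small intestine and between -0.60 and 0.16 in colon, and no chemokine separated the genotypes in either organ (0 of 8 and 0 of 7 tested; 1.02 and 0.208% of all genes). The interaction of genotype with organ passed for 0 of the 9 chemokines tested, by edgeR (FDR at least 0.437; background 0.0193%; 0 at an unadjusted p under 0.05, where 12.9% of all genes were) and by DESeq2 (0.0644%).

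In the single-cell libraries the genotypes can be set side by side only as values. Ccl5 was at 36360 CPM in Btnl2-KO and 34300 in WT duodenum, 38830 and 40830 in the jejunal pair and 41760 and 40560 in the ileal pair. Ccl25 in cluster 3 had 88 UMIs in Btnl2-KO and 57 in WT duodenum, 67 and 90 in the jejunal pair and 17 and 177 in the ileal pair. The epithelial-like cells numbered 4 and 7, 7 and 4, and 3 and 14 in the same order, so the ileal libraries with the fewest and the most Ccl25 UMIs also held the fewest and the most of these cells. Ccl6 in cluster 3 had 315 UMIs in 6 Btnl2-KO cells and 202 in 3 WT cells of the ileum, where its bulk level was lower in Btnl2-KO. Over all cells kept, 1 cell held up to 192 Ccl6 UMIs, so these totals rest on few cells.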

How the data were processed

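Per the labels and the study's methods, bulk RNA was sequenced and mapped to a mouse genome (the submitters' processing notes name GRCm38), and genes were quantified with RSEM. The deposited bulk values are expected counts per gene, 1 table for each of γδ IELs, IECs and tissue. They were rounded to whole numbers here. Of the values, 5.001% (γδ IEL), 14.911% (IEC) and 17.201% (tissue) were not whole. Rows of 100 identifiers without a gene symbol (0.253 to 9.24% of a library) stayed in the library sizes, and 1 column that matched no sample was left out. The single-cell files deposited by the authors hold UMI counts from Cell Ranger on mm10.

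The 10 chemokines, the receptor and marker lists and the named genes (the 10 chemokines in every comparison, and the listed receptors and other chemokines that passed) were chosen with earlier results of these data known. A receptor and a cell marker on these lists are not reported here and were left out of the counts and sums over their lists. Genes were tested when at least 10 counts were found in as many libraries as the smallest group of the fit holds. edgeR 4.0.16 (R 4.3.3) was used with TMM factors, glmQLFit and glmQLFTest, with Benjamini-Hochberg adjustment over all genes tested in a comparison. The call limits were an FDR of 0.05 and a fold of 1.5, and 19 comparisons were made. A genotype was compared within each segment or organ, and WT segments in 1 fit of 3 groups. CPM values use TMM-scaled library sizes. DESeq2 1.42.0, another scaling, no filter, 1 fit over all libraries, covariates for marker means and leaving out each replicate were tried as alternatives. The models were tested on simulated data. The study's methods define samples as biological replicates, but the labels name no mouse for a library. Libraries of different segments or organs may come from the same mice, and the fits treat them as independent. The p-values therefore measure the spread between these libraries. The smallest chi-square per degree of freedom between replicates was 5.283, so none was a duplicate deposit.

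Barcodes under 500 genes or over 10% mitochondrial counts were dropped, which left 23569 of 23994, and cells were clustered with scanpy 1.11.5 on 2000 variable genes without the 10 chemokines (20 components, 20 neighbours, Leiden resolution 0.4). A 0 count was given a limit of 3 counts. The intervals and this limit cover counting error only. Likeness was sought among genes at a mean of 5 CPM or more, a limit not applied to the chemokines themselves. Promoters were matched by symbol for 7 of the 10 chemokines. Ccl4, Ccl5 and Cxcl16 had no entry.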

Additional observations from a re-analysis of the deposited data

Results flagged for a closer look

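In WT ileal γδ IELs, replicate 1 held 137.5 CPM of Ccl6 while the other 3 libraries held 439.3 to 469.0, a gap of 0.9104 of the group's range. In Btnl2-KO colon, replicate 2 held 4.278 CPM of Ccl25 while the other 6 libraries held 1.87 to 2.75. In WT colon, replicate 6 held 9.061 CPM of Ccl20 while the other 5 held 0.9267 to 3.552, and the colon call of Ccl20 was lost without it. Chance gives such a gap in about 5% of groups, and 70 sets of a gene in a group were examined.

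The 425 barcodes left out by the cell filter held 436 UMIs of Ccl25 (190.7 CPM, in 68 barcodes), 17 of Ccl28, 32 of Cx3cl1 and 90 of Ccl6, all above the limit of 3 counts. The 23569 cells kept held 1178, 48, 30 and 889 UMIs of the same genes.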

How the results depend on the processing

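No paired analysis was possible because the labels pair no replicate numbers across groups. Depth limits Ccl3, Ccl4, Xcl1 and Ccl20 in IECs and tissue, and Ccl20, Ccl28, Cx3cl1 and Cxcl16 in single cells. Numbers of chemokines called moved as follows. For WT γδ IELs, ileum against duodenum (1), there were 2 with DESeq2, 2 with the epithelial mean as a covariate, 0 with 1 fit over all libraries, 0 with the Paneth mean, and 0 to 2 leaving out a replicate. For jejunum against duodenum (3) there was 1 with 1 fit, and 1 to 3 leaving out a replicate. For ileum against jejunum (1) there were 3 with DESeq2, 3 with RLE factors, 6 with the epithelial mean, 2 with the Paneth mean and 1 to 3 leaving out a replicate. There, Ccl25 turned to -0.032 (log2) with the epithelial mean, from 0.94. Btnl2-KO γδ IELs (0) had 1 with either covariate, Ccl25, at log2 -1.41 and -2.72. DESeq2 called 2 for genotype in ileal γδ IELs and 1 between WT IEC ileum and duodenum, against 0, with 0 to 1 leaving out a replicate in both. The colon comparison had 8 in WT (5; 4 to 6 leaving out a replicate) and 7 in Btnl2-KO mice (4; 4 to 5) without a filter, and 2 in Btnl2-KO mice with the epithelial mean. The causes were not tested. The share of all genes called is not given beside each of these counts, so they are not read as a result about the chemokines. The other single-gene values under these settings numbered 462 with the same direction and side of the limits.

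Ccl6 in WT ileal IECs was 239.9 CPM without TMM. Over all barcodes, and without the top 2% of cells by UMIs, single-cell levels were 161.9 and 168.4 CPM for Ccl3, 502.7 and 521.5 for Ccl4, 38300 and 40000 for Ccl5, 268.7 and 260.7 for Xcl1, 12.18 and 5.54 for Ccl25, 0.4904 and 0.06557 for Ccl28, 0.4678 and 0.02459 for Cx3cl1, and 7.386 and 0.7048 for Ccl6, and Ccl20 was 0.0 without the top 2%.

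Over all genes, counts called higher and lower also moved. Genotype in ileal γδ IELs had 0 and 0 by edgeR (1108 at an unadjusted p under 0.05), 2 and 219 by DESeq2, and 0 and 60 without WT replicate 1. Genotype in small intestine had 2 and 1 by edgeR, 152 and 25 by DESeq2 and 171 and 48 in 1 fit. Btnl2-KO γδ IELs, ileum against duodenum, had 0 and 1 by edgeR, 59 and 78 by DESeq2, 40 and 47 in 1 fit, and 57 and 422 with the Paneth mean. WT γδ IELs, ileum against duodenum, had 139 and 133 by edgeR and 270 and 228 by DESeq2, and ileum against jejunum had 1466 and 1356 by edgeR and 40 and 84 with the Paneth mean. WT IEC segments had 549 and 311 (ileum against duodenum) by edgeR, 767 and 569 by DESeq2 and 0 and 0 in 1 fit. Btnl2-KO colon against small intestine had 2135 and 2328, and 1735 and 1238 with the epithelial mean.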
